A study of Rattus norvegicus and Mus musculus with 12 samples.

Results

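Matricellular genes of the tenascin, thrombospondin and CCN families, with Postn and Sparc from other families, were examined in cultured rat and mouse articular chondrocytes. These cells make and keep up the cartilage matrix of joints. The 10 genes were Tnc (tenascin C), Postn (periostin), Sparc (osteonectin), Thbs1 and Thbs2 (thrombospondins) and the CCN genes Ctgf, Cyr61, Nov, Wisp1 and Wisp2. They were taken by symbol from the expression tables, where they were 10 of 19687 rat genes and 10 of 28603 mouse genes. All 10 passed the filter on low counts in each species. The study asked how chondrocytes of rats and mice differ in their response to the same inflammatory stimulus, interleukin-1β (IL-1β), a cytokine used to imitate the joint environment of osteoarthritis. There were 4 groups with 3 libraries each: rat control (RC), rat model (RM), mouse control (MC) and mouse model (MM). The rat cells came from newborn Sprague–Dawley animals and the mouse cells from newborn C57BL/6 animals, and all were used at passage 1. The model groups received 20 ng/ml IL-1β for 24 h, and the control groups received none. According to the methods, the 3 samples of a group were independent. The strain label of the mouse libraries differs from library to library, with a rising number after the slash that the methods do not mention. The cells are a primary culture on plastic from newborn cartilage, so they model neither adult cartilage nor the whole joint.

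Matricellular proteins are secreted into the extracellular matrix, where they bind collagens, integrins, proteoglycans and growth factors and change how cells attach and respond, rather than forming the load-bearing scaffold. Tenascin C and periostin are known for appearing in tissue that is developing, injured or remodelling. SPARC binds collagen and mineral, thrombospondins 1 and 2 bind the receptors CD36 and CD47, and thrombospondin 1 can activate latent TGF-β. The CCN proteins are built from shared modules, and Ctgf and Cyr61 are textbook target genes of the YAP and TAZ coactivators acting through TEAD factors.

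The deposited counts came to between 20169272 and 25903459 per library in rat and between 16841580 and 20048322 in mouse. The check genes of the IL-1 response, Il6, Mmp3, Mmp13, Cxcl1 and Nfkbia, all rose in both species (5 of 5), and the log2 fold change of Mmp13, a collagenase, was 3.03 for rat cells and 4.96 for mouse cells. Cartilage genes were well expressed in the control groups, with Col2a1 (type II collagen) at 2838 ± 298 FPKM in RC and 1347 ± 23.8 FPKM in MC (SD, n = 3). All 13 chondrocyte markers fell in both species, and their summed level went from 5586 to 6231 FPKM in RC to between 2282 and 2313 FPKM in RM, and from 2311 to 2381 FPKM in MC to between 213 and 222 FPKM in MM. In bulk RNA, fewer cells of a type and less RNA per cell cannot be told apart, and the part of this loss in the results below was not tested. The summed level of 10 fibroblast markers was 4083 to 4531 FPKM in RC, 3122 to 3239 in RM, 3346 to 3392 in MC and 1346 to 1356 in MM, with 2 rising and 3 falling in rat and 4 rising and 6 falling in mouse. The 10 macrophage and leukocyte markers summed to 20.0 to 23.4 FPKM in RC, 32.6 to 35.7 in RM, 7.38 to 7.78 in MC and 34.6 to 37.1 in MM, 3 of them had a mean of at least 1 FPKM in each group, and the defining Ptprc was at a mean of at most 0.0559 FPKM. C1qa was at 0 in all MC libraries, and Adgre1 and C1qb were at 0 in all MM libraries. Of the markers tested, 2 rose and 2 fell among 5 in rat, and 4 of 4 rose in mouse, where Cd14 alone went from 1.87 ± 0.434 to 24.1 ± 0.730 FPKM. The 6 osteoblast markers summed to 8.27 to 9.16 FPKM in RC, 2.07 to 3.01 in RM, 16.4 to 17.3 in MC and 1.73 to 1.86 in MM, with 2 of 3 tested falling in rat and 6 of 6 in mouse. The 6 muscle markers summed to 3.19 to 4.18 FPKM in RC, 2.67 to 3.07 in RM, 3.81 to 4.35 in MC and 0.390 to 0.816 in MM, and 2 of 2 tested fell in mouse. Beside these marker counts, 18.3% of all genes tested rose and 16.8% fell in rat, and 37.4% rose and 37.7% fell in mouse. Endothelial markers summed to at most 0.793 FPKM in any library. The part of these shifts in the results below was not tested either.

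The response differed between the species for 9 of the 10 genes and did not pass the test of that difference for Cyr61. In rat, 3 genes rose (Postn, Nov and Wisp1) and 5 fell (Sparc, Thbs1, Thbs2, Ctgf and Wisp2), while Tnc and Cyr61 did not pass the test, where a gene is said to have risen or fallen at a Benjamini-Hochberg adjusted P under 0.05 in the edgeR quasi-likelihood test over all 13303 genes tested. Of all rat genes tested, 18.3% rose and 16.8% fell, 35.1% in all. In mouse, 2 genes rose (Tnc and Cyr61) and 8 fell, against 37.4% and 37.7%, or 75% in all, of the 14774 mouse genes tested. The rise of mouse Cyr61 rests on the scaling between libraries, as described with that gene. The median log2 fold change of the 10 genes was -0.18 in rat and -1.13 in mouse, beside medians over all genes tested of 0.01 and -0.02. With the further criteria of a differentially expressed gene (DEG) used in the study, read here as an absolute log2 fold change of 0.85 or more together with 1 FPKM or more in any library, Postn was an upregulated DEG in rat and none of the 10 was downregulated, where 4.49% and 3.73% of all rat genes were up and down and 8.22% were DEGs of either direction. The study states a P under 0.05 and names no adjustment, while the adjusted P was kept here. The count of downregulated DEGs among the 10 rat genes was also 0 with DESeq2 and with limma. An unadjusted P could not change this count, as the 5 fallers missed only the size criterion. The count was 1 without RC replicate 1, RC replicate 3, RM replicate 1 or RM replicate 2, through Thbs1, which was at -0.84 with all libraries. In mouse, Tnc was an upregulated DEG and 7 genes were downregulated DEGs, against 12.6% and 13% of all mouse genes and 25.6% in either direction. Wisp1 fell in mouse just short of that size, at -0.83, and reached it without MC replicate 2 (-0.86) or MM replicate 3 (-0.85) and with library size alone (-1.10).

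**Figure D1:**
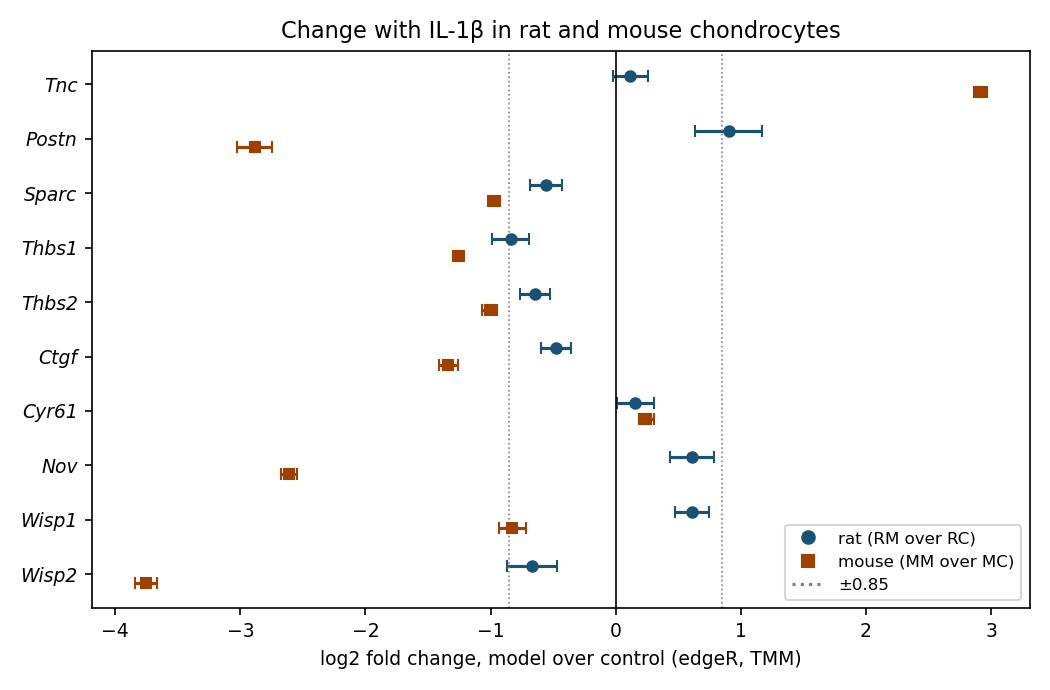
Log2 fold changes of the 10 genes, model against control, in rat and mouse on the horizontal axis, with points for the edgeR estimate, bars for its 95% interval and dotted lines at 0.85 in either direction. Tnc stands at 0.12 in rat and 2.91 in mouse, Postn, Nov and Wisp1 stand above 0 in rat and below 0 in mouse, and the other fallers stand below 0 in both; mouse Cyr61 turns to just below 0 with library size scaling.

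Set side by side, 5 genes fell in both species (Sparc, Thbs1, Thbs2, Ctgf and Wisp2), which 10.1% of the 10912 shared genes did. Another 3 genes rose in rat and fell in mouse (Postn, Nov and Wisp1), which 7.29% of shared genes did. The difference between the species, the log2 fold change of mouse less that of rat, was tested in 1 fit over all 12 libraries. It was above 0 for Tnc and below 0 for 8 genes at an adjusted P under 0.05, and it did not pass for Cyr61, while over all shared genes 31.4% lay above and 32.3% below, 63.8% in all. Counted by FPKM, the model libraries did not overlap the control libraries for 9 of the 10 genes in rat (4 above and 5 below) and for 9 in mouse (1 above and 8 below), beside 47.8% of all rat genes and 80.3% of all mouse genes tested. The median difference of the 10 genes was -0.64, beside -0.03 over all shared genes.

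Levels within a library are given as FPKM, fragments scaled to gene length and library total, which can be set side by side between genes of the same species. They are not compared between species, since the lengths behind them differ: the deposited values correspond to a length of 3229 bases for rat Postn and 8702 for mouse Postn, and of 1899 for rat Wisp1 and 5565 for mouse Wisp1. Fold changes are edgeR estimates after TMM scaling, a correction for the make-up of the libraries that FPKM lacks. Without it the median log2 fold change over all mouse genes was -0.30 in place of -0.02. Mouse folds below therefore differ from the ratios of the printed FPKM. In RC the order was Sparc, Ctgf, Thbs1, Thbs2, Tnc, Cyr61, Wisp2, Nov, Wisp1 and Postn, and only the libraries of Ctgf and Thbs1 overlapped between neighbours. In RM the last 4 places were Nov, Wisp1, Wisp2 and Postn, and no neighbours overlapped. In MC the order was Thbs1, Sparc, Nov, Cyr61, Wisp2, Ctgf, Thbs2, Tnc, Wisp1 and Postn, with no overlap between neighbours. In MM Sparc led, followed by Thbs1, Tnc, Cyr61, Ctgf, Nov, Thbs2, Wisp2, Wisp1 and Postn, again with no overlap between neighbours. Tnc thus stood in the eighth place in MC and in the third place in MM.

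**Figure D2:**
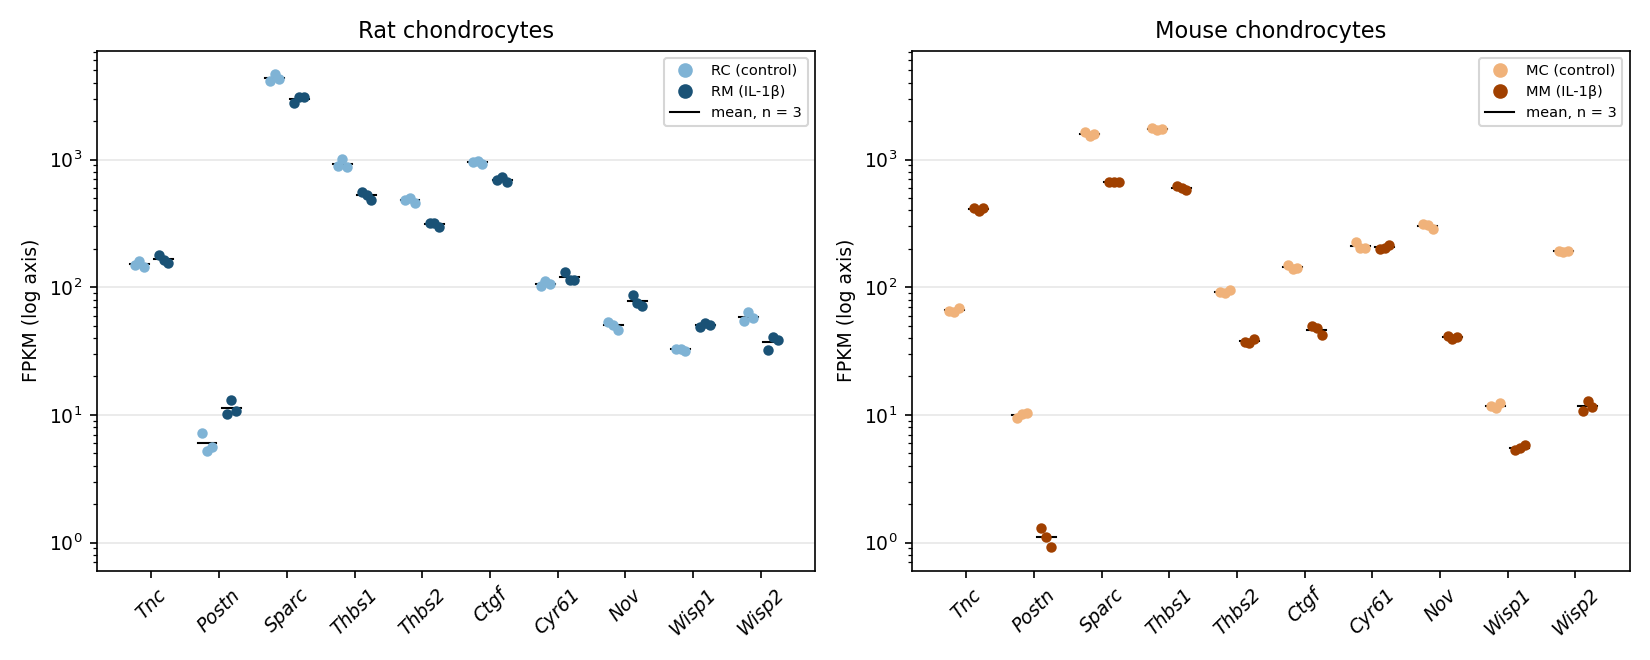
FPKM of the 10 genes in each library on a log axis, in a rat and a mouse panel, with points for the 3 libraries of each group and a bar at their mean. The model libraries lie apart from the control libraries for every gene except Tnc in rat and Cyr61 in mouse, and the mouse Tnc libraries rise from at most 68.3 to at least 393 FPKM.

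Tnc encodes a large six-armed glycoprotein that lessens cell adhesion to fibronectin and can act on innate immune receptors. In mouse, Tnc was at 65.2, 64.4 and 68.3 FPKM in the MC libraries and at 418, 393 and 419 FPKM in the MM libraries. All MM libraries lay far above all MC libraries. The TMM-scaled change was 7.54-fold, a log2 fold change of 2.91 (SE 0.028, adjusted P = 5.98e-67), and Tnc was at rank 42 of all mouse genes by P. In rat, Tnc was at 150.1, 161 and 143 FPKM in RC and at 178, 164 and 156 FPKM in RM. The rat groups overlapped, and the log2 fold change of 0.12 (95% interval -0.02 to 0.26, adjusted P = 0.233) did not pass the test. The difference between species was 2.80 on the log2 scale (adjusted P = 4.01e-14). In the mouse annotation (GRCm38) Tnc lies on the minus strand of chromosome 4 from 63959785 to 64047015 with 27 merged exons, and 176 exon bases are shared with the antisense gene 8030451A03Rik, which had 6 to 164 counts per library. The strand setting of the counting is not given in the sources used here, so reads of the pair cannot be told apart over those bases.

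Postn encodes periostin, a secreted protein with fasciclin domains that binds collagen and tenascin C. In rat, Postn was at 7.15, 5.19 and 5.57 FPKM in RC and at 10.1, 13.1 and 10.6 FPKM in RM. All RM libraries lay above all RC libraries, and Postn rose 1.87-fold (log2 fold change 0.90, SE 0.14, adjusted P = 0.000571). It was just past the size criterion of a DEG, and without RC replicate 2 or RM replicate 2 the log2 fold change was 0.80 or 0.78. In mouse, Postn was at 9.41, 10.2 and 10.3 FPKM in MC and at 1.30, 1.10 and 0.920 FPKM in MM. Every MM library lay below every MC library, and the TMM-scaled level was 7.39-fold lower (log2 fold change -2.89, SE 0.071, adjusted P = 1.06e-43). The species differed by -3.79, the largest difference in size among the 10 genes (adjusted P = 1.61e-11). Postn lies on the plus strand of mouse chromosome 3 from 54361109 to 54391037 (GRCm38) with 22 merged exons.

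Sparc encodes osteonectin, a collagen-binding calcium-binding protein and one of the most abundant products of skeletal cells. In rat, Sparc was at 4136, 4642 and 4273 FPKM in RC and at 2792, 3083 and 3099 FPKM in RM, and it made up 0.853 to 0.958% of all counts in RC libraries and 0.576 to 0.639% in RM libraries. In mouse it was at 1635, 1530.1 and 1583 FPKM in MC and at 663, 661 and 669 FPKM in MM. The model libraries lay below the control libraries in both species. The log2 fold change was -0.56 in rat (SE 0.065, adjusted P = 9.99e-05) and -0.97 in mouse (SE 0.024, adjusted P = 3.88e-44), a difference of -0.42 (adjusted P = 0.000204). Mouse Sparc lies on the minus strand of chromosome 11 from 55394500 to 55423183 with 12 merged exons.

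The thrombospondins fell in both species. Thbs1 encodes a trimeric protein that inhibits angiogenesis. In rat it was at 892, 1018 and 872 FPKM in RC and at 553, 532 and 486 FPKM in RM, and in mouse at 1759.9, 1714 and 1745 FPKM in MC and at 619, 597 and 582 FPKM in MM. The groups did not overlap in either species. The log2 fold change was -0.84 in rat (SE 0.076, adjusted P = 1.79e-05), just short of the size criterion of a DEG, and it passed that criterion when any of RC replicate 1, RC replicate 3, RM replicate 1 or RM replicate 2 was left out, with values down to -0.89. In mouse it was -1.26 (SE 0.023, adjusted P = 4.76e-51), and the species differed by -0.42 (adjusted P = 0.00055). Thbs1 lies on the plus strand of mouse chromosome 2 from 118111876 to 118127133 and shares 208 exon bases with the antisense gene Gm29233, which was not analysed here.

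Thbs2, a close relative of Thbs1 that takes part in collagen fibril assembly, was at 485, 503 and 454 FPKM in RC and at 318, 316 and 299 FPKM in RM. In mouse it was at 90.9, 90.9 and 94.4 FPKM in MC and at 37.3, 36.6 and 39.5 FPKM in MM. In both species all model libraries were below all control libraries. The log2 fold change was -0.64 in rat (SE 0.061, adjusted P = 2.5e-05) and -1.01 in mouse (SE 0.030, adjusted P = 4.39e-39), a difference of -0.36 (adjusted P = 0.00034). The ratio of Thbs1 to Thbs2 was lower in every model library than in every control library of the species, going from 1.93 ± 0.0932 in RC to 1.68 ± 0.0552 in RM and from 18.9 ± 0.438 in MC to 15.9 ± 0.995 in MM (SD, n = 3). Mouse Thbs2 lies on the minus strand of chromosome 17 from 14665500 to 14694235.

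Rat promoter sequences are shown for 4 of the 6 genes with a matched window: Ctgf and Cyr61, which parted from each other, and Tnc and Postn, which parted between species. No mouse promoter was examined, so the letters can be set beside the rat values alone. RefSeq windows of the rat build GRCr8 were matched for 6 of the 10 genes (Tnc, Postn, Sparc, Thbs1, Ctgf and Cyr61), and the 250 bases before the start of the gene are printed 5′ to 3′ in the direction of the gene. Capitals mark every match, on either strand, to the TEAD core GGAATG, the AP-1 motif TGACTCA, the SMAD motif CAGACA, the TATA box TATAAA, the NF-kB site or the SRF CArG box. The Ctgf sequence is chr1:22624615-22624864 on the minus strand, that of Cyr61 is chr2:237225690-237225939 on the minus strand, that of Tnc is chr5:82476132-82476381 on the minus strand and that of Postn is chr2:140677811-140678060 on the plus strand.
Ctgf: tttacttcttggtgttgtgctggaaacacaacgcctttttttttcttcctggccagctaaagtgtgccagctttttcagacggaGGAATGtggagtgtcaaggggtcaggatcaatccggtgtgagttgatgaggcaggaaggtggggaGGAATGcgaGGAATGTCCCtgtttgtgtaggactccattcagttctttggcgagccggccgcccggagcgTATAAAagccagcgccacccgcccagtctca
Cyr61: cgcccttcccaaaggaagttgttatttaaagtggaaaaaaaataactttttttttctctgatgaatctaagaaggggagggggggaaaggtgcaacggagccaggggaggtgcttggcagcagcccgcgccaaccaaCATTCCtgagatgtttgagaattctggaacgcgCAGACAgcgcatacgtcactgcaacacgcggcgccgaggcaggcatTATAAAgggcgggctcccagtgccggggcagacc
Tnc: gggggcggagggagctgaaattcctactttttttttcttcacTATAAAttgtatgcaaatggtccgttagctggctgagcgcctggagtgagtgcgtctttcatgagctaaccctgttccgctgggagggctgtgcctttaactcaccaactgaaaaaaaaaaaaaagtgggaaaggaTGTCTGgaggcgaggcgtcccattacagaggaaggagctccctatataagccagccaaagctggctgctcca
Postn: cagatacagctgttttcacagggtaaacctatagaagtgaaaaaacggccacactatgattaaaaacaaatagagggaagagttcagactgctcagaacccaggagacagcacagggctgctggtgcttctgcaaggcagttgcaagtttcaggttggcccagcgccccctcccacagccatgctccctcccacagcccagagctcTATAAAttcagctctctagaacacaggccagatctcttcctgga
In these windows Ctgf held 3 TEAD cores, at 166, 101 and 92 bases before the start, the last of which overlaps an NF-kB match on the other strand, and a TATA box at 31 bases. Cyr61 held a TEAD core on the other strand at 113 bases, a SMAD motif at 80 and a TATA box at 34. Tnc held a SMAD match at 72 bases and a TATA box match at 208, and Postn held a TATA box at 44. Sparc and Thbs1, not printed, each held a TEAD core, at 33 and 47 bases, so 4 of the 6 genes had a match to it, beside 12.1% of 33469 rat promoters. Matches to TATAAA were present in 4 of the 6 and in 12.9% of all promoters, at any place in the 250 bases. That of Tnc lay far from the start, at 208 bases, and other forms of the box were not searched. SMAD matches were present in 3 of the 6 and 17.2% of all. No window of the 6 held the AP-1 motif or the CArG box, which were in 4.05% and 1.5% of all promoters, and the NF-kB site was in 6.33% of all. A match is a run of letters and does not show binding.

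Ctgf and Cyr61, the CCN genes with the TEAD matches above, did not move together. Ctgf, whose protein promotes matrix production downstream of TGF-β, was at 958, 977 and 924 FPKM in RC and at 687, 725 and 664 FPKM in RM. In mouse it was at 149, 139 and 142 FPKM in MC and at 50.0, 47.6 and 42.1 FPKM in MM. All model libraries were lower than all control libraries. The log2 fold change was -0.48 in rat (SE 0.059, adjusted P = 0.00015) and -1.34 in mouse (SE 0.038, adjusted P = 2.07e-40), a difference of -0.86 (adjusted P = 1.61e-07). Mouse Ctgf lies on the plus strand of chromosome 10 from 24595442 to 24598683 and shares 665 exon bases with the antisense gene Gm15270, which had 1 to 4 counts per library.

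Cyr61, whose protein binds integrins and is induced quickly by growth factors and stretch, was at 101, 112 and 106 FPKM in RC and at 131, 115 and 115 FPKM in RM. The RM libraries were all slightly higher, but the log2 fold change of 0.16 (95% interval 0.01 to 0.31, unadjusted) did not pass after adjustment (adjusted P = 0.135). In mouse, Cyr61 was at 224, 202 and 203 FPKM in MC and at 199, 202 and 213 FPKM in MM, so that the groups overlapped. After TMM scaling, which corrects for a shift in the make-up of the libraries, the values were 412, 370.4 and 371 TMM-scaled CPM in MC and 445, 450.2 and 474 in MM, and the log2 fold change was 0.25 (SE 0.032, adjusted P = 6.12e-10). With library size alone it was -0.03 (adjusted P = 0.338), and with limma on log2(FPKM + 1) it was -0.03 (adjusted P = 0.533), so the sign of this change turns with the choice of scaling. Without TMM factors the median of all mouse genes was at -0.30, and relative to that median Cyr61 was higher under either scaling. The difference between species was 0.09 (95% interval -0.08 to 0.26, adjusted P = 0.391), and -0.21 with library size alone (adjusted P = 0.0477). Mouse Cyr61 lies on the minus strand of chromosome 3 from 145646976 to 145649981.

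The ratio of Ctgf to Cyr61 within a library does not depend on scaling. It was 8.97 ± 0.423 in RC and 5.80 ± 0.534 in RM, and 0.684 ± 0.0189 in MC and 0.228 ± 0.0276 in MM (SD, n = 3). The highest RM library, at 6.33, was below the lowest RC library, at 8.72, and the highest MM library, at 0.251, was below the lowest MC library, at 0.663. No test is given for the ratios, as 3 libraries against 3 cannot go below P = 0.1 in an exact permutation test.

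Nov and Wisp1 changed in opposite directions in the 2 species. Nov encodes a CCN protein that is made in cartilage and often counteracts Ctgf. In rat it was at 53.8, 50.8 and 45.9 FPKM in RC and at 86.2, 75.2 and 70.8 FPKM in RM, a rise in every RM library over every RC library (log2 fold change 0.61, SE 0.091, adjusted P = 0.000516). In mouse it was at 312, 309 and 285 FPKM in MC and at 41.3, 39.6 and 41.1 FPKM in MM. The TMM-scaled level was 6.12-fold lower (log2 fold change -2.61, SE 0.034, adjusted P = 1.42e-59). Nov was the third most highly expressed of the 10 genes in MC and the sixth in MM. The difference between species was -3.22 (adjusted P = 8.43e-14). Mouse Nov lies on the plus strand of chromosome 15 from 54745702 to 54754039.

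Wisp1, first described as a gene induced by Wnt signalling, was at 33.0, 32.8 and 31.8 FPKM in RC and at 48.6, 52.1 and 50.1 FPKM in RM. In mouse it was at 11.8, 11.4 and 12.3 FPKM in MC and at 5.28, 5.47 and 5.77 FPKM in MM. The groups did not overlap in either species. The log2 fold change was 0.61 in rat (SE 0.069, adjusted P = 8.24e-05) and -0.83 in mouse (SE 0.056, adjusted P = 5.45e-21), a difference of -1.44 (adjusted P = 1.56e-10). Mouse Wisp1 lies on the plus strand of chromosome 15 from 66891320 to 66923201.

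Wisp2, the CCN gene whose protein is known to lack the C-terminal module of the others, had the largest fall of the 10 genes in mouse. It was at 194, 189 and 194 FPKM in MC and at 10.8, 12.8 and 11.6 FPKM in MM. The TMM-scaled level was 13.5-fold lower (log2 fold change -3.76, SE 0.045, adjusted P = 2.09e-61), at rank 87 of all mouse genes by P. In rat it was at 54.2, 63.9 and 57.9 FPKM in RC and at 32.2, 40.8 and 38.8 FPKM in RM, with no overlap (log2 fold change -0.67, SE 0.10, adjusted P = 0.000571). The species differed by -3.09 (adjusted P = 1.03e-12). Mouse Wisp2 lies on the plus strand of chromosome 2 from 163820861 to 163833146.

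**Figure D3:**
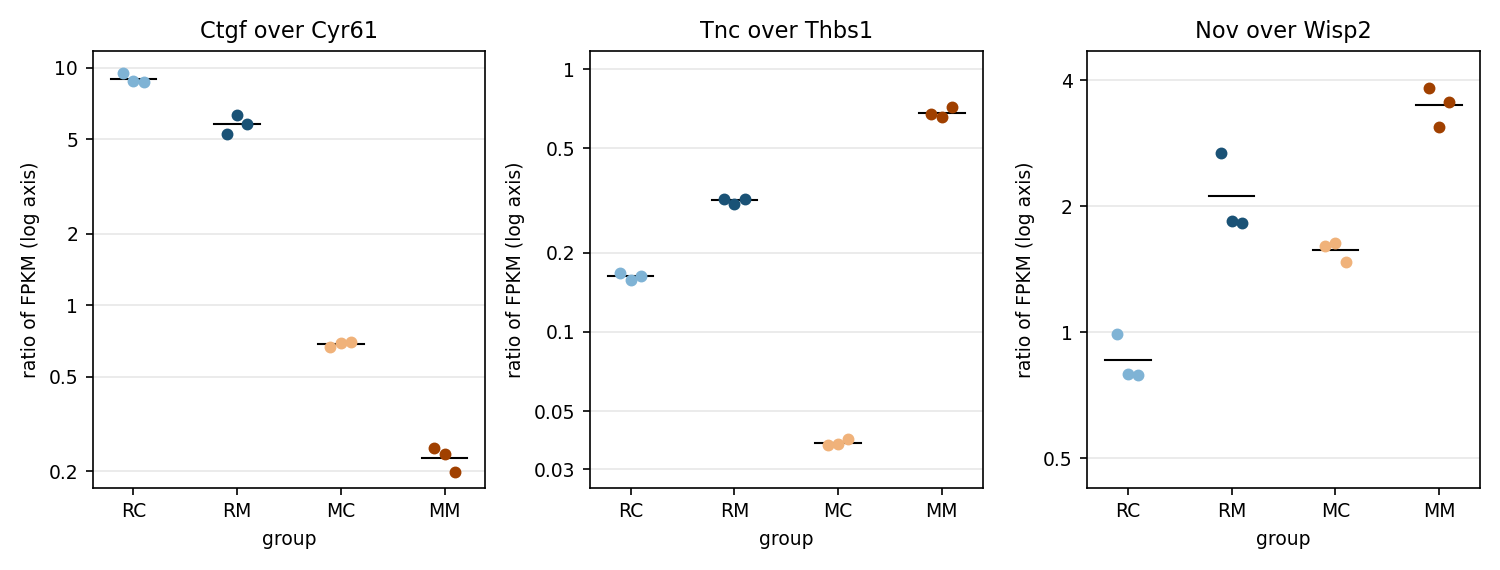
FPKM ratios within each library on a log axis for Ctgf over Cyr61, Tnc over Thbs1 and Nov over Wisp2, with a point per library for the 4 groups and a bar at the mean of each group. The Ctgf over Cyr61 ratio is lower and both other ratios are higher in the model libraries of each species, with Tnc over Thbs1 at 0.0379 in MC and 0.684 in MM.

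Other ratios moved in the same direction in both species, by unequal amounts that were not tested against each other. The ratio of Tnc to Thbs1 was 0.164 ± 0.00503 in RC and 0.317 ± 0.00792 in RM, and 0.0379 ± 0.00109 in MC and 0.684 ± 0.0313 in MM. The ratio of Nov to Wisp2 was 0.860 ± 0.115 in RC and 2.12 ± 0.488 in RM, and 1.57 ± 0.0888 in MC and 3.49 ± 0.377 in MM. The ratio of Tnc to Sparc was 0.0348 ± 0.00142 in RC, 0.0557 ± 0.00709 in RM, 0.0417 ± 0.00168 in MC and 0.617 ± 0.0193 in MM. In each case the model libraries lay above the control libraries of the same species.

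The summed level of the 10 genes was 7116 ± 389.5 FPKM in RC, 4980.1 ± 139.8 in RM, 4349 ± 96.4 in MC and 2022 ± 24.1 in MM, lower in every model library than in every control library of the species. FPKM lacks the TMM correction, and without it the median log2 fold change over all mouse genes was -0.30. The size of the mouse fall in the summed level is therefore not TMM-scaled. Sparc held 61.1 ± 0.831% of this sum in RC and 60.04 ± 2.21% in RM. In mouse Sparc held 36.4 ± 0.423% in MC and 32.9 ± 0.380% in MM, while Thbs1 went from 40.0% to 29.6%. The share of Tnc went from 2.13 ± 0.0582% in RC to 3.34 ± 0.301% in RM, and from 1.52 ± 0.0556% in MC to 20.3 ± 0.515% in MM. Cyr61 went from 4.82% in MC to 10.1% in MM, Nov from 6.94% to 2.01% and Wisp2 from 4.42% to 0.581%.

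**Figure D4:**
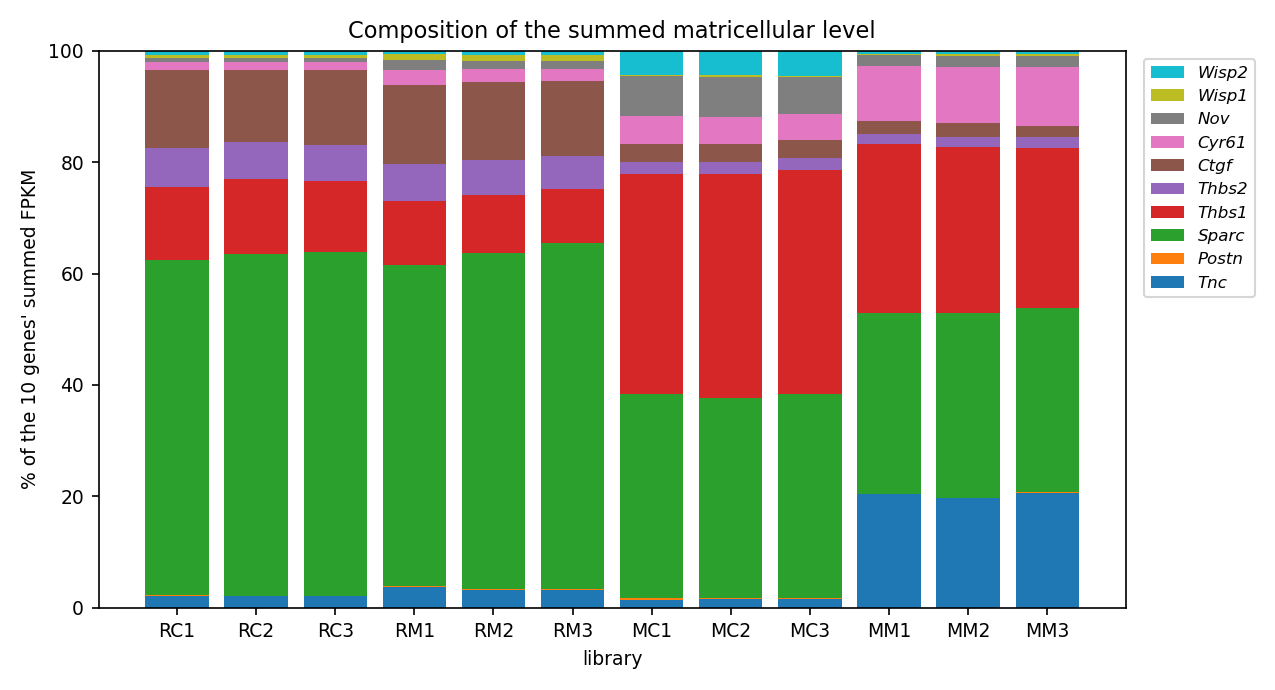
Stacked bars of each gene's share, in percent, of the summed FPKM of the 10 genes in each of the 12 libraries. Sparc takes about the same share in RC and RM, and the Tnc share widens from 1.52% in MC to 20.3% in MM.

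The spread between libraries was small beside most of these changes. The median coefficient of variation of the 10 genes was 6.03% in RC, 6.66% in RM, 3.38% in MC and 3.84% in MM, and Postn, the gene with the lowest level, had the highest value in 3 of the 4 groups, at 17.4% in RC, 14.4% in RM and 17.0% in MM.

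A list of 16 genes held relatives of the 10 genes together with Spp1, which belongs to none of their families. Of these, 12 were tested in rat, where 2 rose, 6 fell and 4 did not pass, with a median log2 fold change of -0.67. In mouse 14 were tested, 3 rose and 11 fell, with a median of -1.26. The shares over all genes tested were 18.3% rising and 16.8% falling in rat and 37.4% and 37.7% in mouse. In the difference between species, of 12 listed genes 2 were higher in mouse, 7 were lower and 3 did not pass. Over all shared genes, 31.4% were higher and 32.3% lower. Spp1, which encodes osteopontin, a phosphoprotein of mineralised tissue, rose from 2089 ± 124 to 4300.3 ± 483 FPKM in rat and from 375 ± 5.71 to 3882 ± 73.0 FPKM in mouse (SD, n = 3), log2 fold changes of 1.03 and 3.65. Comp, the cartilage thrombospondin, fell in both, with log2 fold changes of -1.35 and -2.57. Fstl1, a secreted follistatin-like glycoprotein of the SPARC family, rose in mouse by 1.31 and was at -0.07 in rat (adjusted P = 0.367). Tnn (tenascin N) also rose in both species, by 1.47 in rat and 0.60 in mouse, and Wisp3, the remaining CCN gene, fell in both (-1.15 and -1.73) at 3 to 37 counts per library. Of the other tenascins, Tnxb fell in mouse from 12.9 ± 0.377 to 6.26 ± 0.231 FPKM (log2 fold change -0.76) and was not analysed here in rat, and Tnr, at 0 to 10 counts per library, did not pass the filter in either species. These 4 genes were named outside the rule for naming genes, after their values were seen, as the remaining tenascin and CCN genes of the list.

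**Figure D5:**
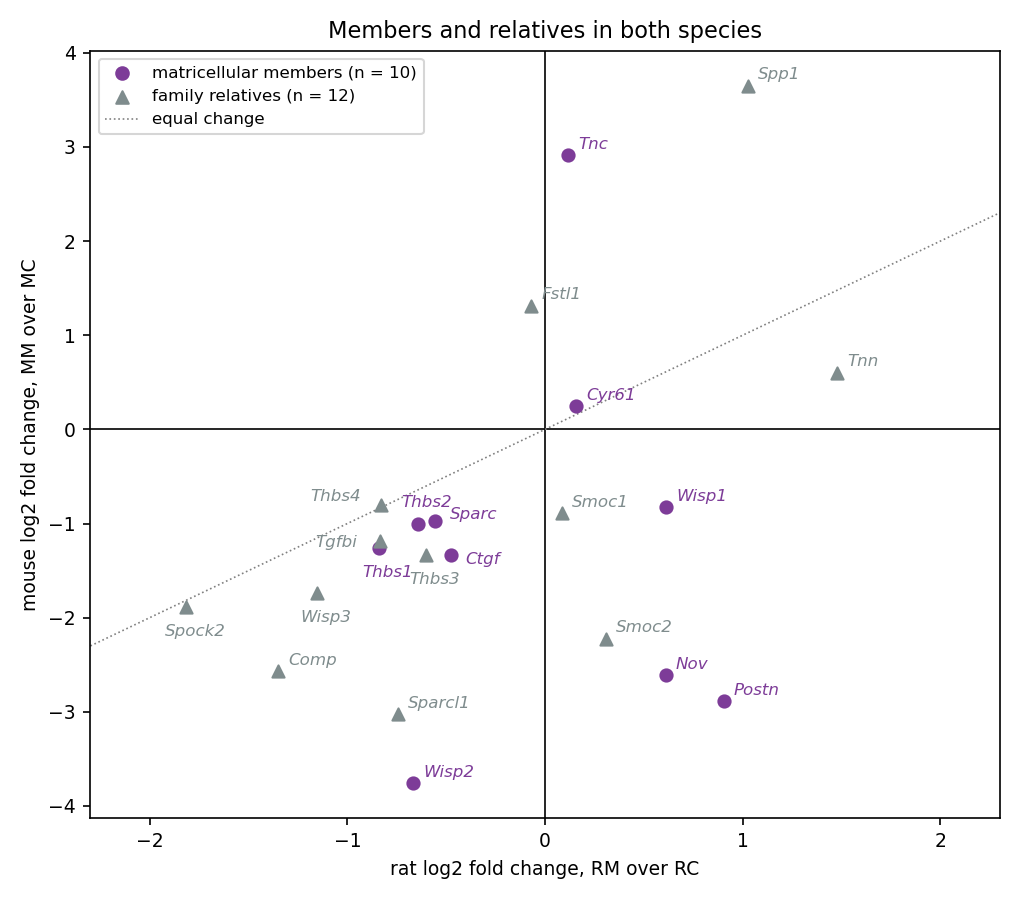
Log2 fold change in rat (horizontal) against that in mouse (vertical) for the 10 genes and the 12 genes of the list of relatives tested in both species, each point a gene. Spp1 is in that list but belongs to none of the families of the 10 genes. Tnc lies high near the vertical zero line, Postn, Nov and Wisp1 lie in the lower right part, and Spp1 lies up in both at 1.03 and 3.65.

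The other genes tied to these families were divided in direction. Of the YAP/TEAD target genes other than Ctgf and Cyr61, 20 were tested in rat, where 5 rose, 5 fell and 10 did not pass (median -0.07), and 22 in mouse, where 12 rose, 6 fell and 4 did not pass (median 0.22). The shares over all genes tested were 18.3% rising and 16.8% falling in rat and 37.4% and 37.7% in mouse. With library size alone the mouse counts turned to 8 rising and 10 falling, where 25% of all mouse genes rose and 54.7% fell. Ccdc80, a secreted matrix protein, fell in both, with log2 fold changes of -0.90 and -3.59. Nt5e, the ectoenzyme CD73, was at -0.15 in rat (adjusted P = 0.310) and rose by 2.86 in mouse, and Dock5, a guanine nucleotide exchange factor, was at 0.19 in rat (adjusted P = 0.103) and rose by 2.33 in mouse.

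Of 12 TGF-β ligands, receptors and response genes, 7 rose, 4 fell and 1 did not pass in rat (median 0.54), and 6 rose, 5 fell and 1 did not pass in mouse (median 0.34). Over all genes tested, 18.3% rose and 16.8% fell in rat, and 37.4% rose and 37.7% fell in mouse. Ltbp2, a latent TGF-β binding protein family member of microfibrils, rose by 1.44 in rat and 2.50 in mouse. The ligand gene Tgfb2 fell in both, at -0.26 (rat, adjusted P = 0.0337) and -2.21 (mouse) on the log2 scale, and the rat call was lost without RC replicate 3, RM replicate 1 or RM replicate 3, with adjusted P of 0.0594, 0.13 and 0.12.

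Of the receptors of matricellular proteins, 14 were tested in rat, where 5 rose, 3 fell and 6 did not pass (median 0.04), and 15 in mouse, where 8 rose, 6 fell and 1 did not pass (median 0.21); with library size alone 7 rose and 8 fell. The shares of all genes were again 18.3% and 16.8% in rat and 37.4% and 37.7% in mouse, or 25% and 54.7% in mouse with library size alone. The rat count of falling receptors was 1 without RC replicate 3 or without RM replicate 2. Sdc4, a heparan sulphate proteoglycan of the cell surface, rose by 0.92 in rat and 1.64 in mouse. Lrp1, an endocytic receptor that takes up thrombospondins and CCN proteins, rose by 1.09 in mouse and was at 0.02 in rat (adjusted P = 0.846). Itgav, the integrin αv chain, rose by 1.39 in mouse and was at 0.16 in rat (adjusted P = 0.0946), where it passed without RC replicate 1 (adjusted P = 0.018).

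The genes whose pattern lay closest to each of the 10 were found by the Euclidean distance over the 12 libraries and 10902 genes. The distance was taken between log2 CPM (counts scaled to library size and TMM factor), centred on the control mean of the species. Tnc had Triobp and Lrrc8d as its nearest genes (distances 0.358 and 0.372, beside a median of 5.15 over all genes). For Postn they were Lmnb1 and Nuf2 (0.604 and 0.629, median 5.31), for Nov Racgap1 and Tmem106a (0.362 and 0.388, median 4.70), and for Wisp1 Gdpd5 and Polh (0.253 and 0.259, median 2.09). The log2 fold changes of Lmnb1 were 0.87 (rat) and -2.99 (mouse), and those of Racgap1 0.59 and -2.52. For Sparc the nearest were Anxa6 and Arnt2 (0.202 and 0.208, median 2.24), for Thbs1 Boc and Itm2a (0.297 and 0.318, median 2.84), and for Thbs2 Sox9 and Pam (0.241 and 0.258, median 2.35). Sox9, the transcription factor of the chondrocyte lineage, was at -0.65 in rat and -1.06 in mouse. For Ctgf they were Myo18a and Pdgfrb (0.223 and 0.291, median 2.68), for Cyr61 Polr3a and Pard3 (0.179 and 0.181, median 1.26), and for Wisp2 Aff3 and Pcsk6 (0.389 and 0.526, median 6.64). The nearest genes were picked as the smallest distances, so they lie below the median by construction, and the median is no measure of their closeness. The distances describe these libraries and were not tested.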

How the data were processed

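RNA-seq was performed on rat and mouse articular chondrocytes with and without IL-1β, with 3 libraries in each of 4 groups. The authors deposited, per the labels, a table of read counts and FPKM values for each species, and the submitters' processing notes name HISAT2, HTSeq 0.11.2 and the builds Rnor_6.0 and GRCm38. The strand setting of the counting was not found. The deposited counts were raw, and the deposited FPKM values fit counts divided by library total and 1 length per gene, within 0.1%, for all 13230 rat and 14641 mouse genes tried. The FPKM values thus carry no correction for library make-up. The precision is set by 3 libraries per group and by the depth given in the report.

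Model was compared with control in each species with edgeR 4.0.16 (R 4.3.3): filterByExpr, TMM scaling, the quasi-likelihood test and Benjamini-Hochberg adjustment over all genes tested. The standard error was taken from the F statistic, and 95% intervals are unadjusted. The difference between species was fitted over genes shared by symbol (14351 shared, 10912 tested). TMM factors were 0.994 to 1.01 in rat, 1.10 in MC and 0.905 to 0.911 in MM. Alternatives used library size alone, DESeq2 size factors, no filter, DESeq2 1.42.0, limma 3.58.1 on log2(FPKM + 1) and log2(FPKM + 0.1), the replicate number as a block, other DEG criteria and leaving out each library. Scripts were tested on simulated data. No pair of libraries of a group agreed within sampling noise, though mouse pairs came near it. Their chi-square per degree of freedom was 1.86 to 2.40 in mouse and 5.80 to 26.3 in rat. The common coefficient of variation between replicates in edgeR was 0.0318 in mouse and 0.106 in rat. The P values measure the spread between these libraries. The methods do not say whether the libraries of a group came from separate animals.

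The 10 genes and all lists were chosen with earlier results of these data known. Named genes were the 10, the 3 genes with the smallest adjusted P of each list, and the 2 genes nearest to each of the 10; 1 gene of these lists is not reported here. Mouse positions come from GENCODE M21 and rat promoters from RefSeq GRCr8. A planned comparison of protein sequences was not run, as no protein table was used here.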

Additional observations from a re-analysis of the deposited data

Results flagged for a closer look

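The responses of 9 of the 10 matricellular genes differed between the species by a direct test of the difference, the log2 fold change in mouse minus that in rat (edgeR, adjusted P under 0.05), which 63.8% of all shared genes also did. Tnc was higher in mouse, at 2.80. Postn at -3.79, Nov at -3.22, Wisp2 at -3.09 and Wisp1 at -1.44 were lower by the widest margins. Ctgf at -0.86, Thbs1 at -0.42, Sparc at -0.42 and Thbs2 at -0.36 fell in both species and fell further in mouse.

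The named companion genes also differed, as did 63.8% of all shared genes. They had been picked by the smallest adjusted P in either species, so they do not stand for their lists. The difference was 2.62 for Spp1, and among relatives it was -1.22 for Comp and 1.38 for Fstl1. Among YAP/TEAD target genes it was -2.69 for Ccdc80, 3.01 for Nt5e and 2.14 for Dock5. Among TGF-β genes it was 1.06 for Ltbp2 and -1.95 for Tgfb2, and among receptors 0.72 for Sdc4, 1.07 for Lrp1 and 1.22 for Itgav. The check genes Mmp3, Cxcl1 and Mmp13 differed by 7.38, 4.98 and 1.93; Mmp3 and Cxcl1 had 25 to 39 counts per library in MC, so the size of their mouse change rests on few control reads. The species differ in animals, cultures and annotation at once, and these cannot be told apart in the design. Groups of 3 libraries are too small for the check for single outlying libraries.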

How the results depend on the processing

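Of 450 values of single matricellular genes under the alternatives, 444 kept direction and side of the threshold, and the 6 others all concern Cyr61. Its mouse log2 fold change turned to -0.03322 with library size alone, -0.03116 with limma on log2(FPKM + 1) and -0.0313 with limma on log2(FPKM + 0.1), which left 1 gene rising in mouse in each case, and its difference between species turned to -0.2057, -0.2011 and -0.2026. The rat log2 fold change of Lrp1, which did not pass, was -0.04156 to 0.1253 with a library left out, below 0 at -0.04156, -0.02681 and -0.005334 when RC replicate 1, RC replicate 3 and RM replicate 3, in that order, were dropped. The count of upregulated DEGs among the 10 genes in rat was 0 with limma on log2(FPKM + 1) and with a log2 threshold of 1, and 0 to 1 when a library was left out; the count of downregulated DEGs was 0 to 1. Over all genes, limma on log2(FPKM + 1) gave 273 downregulated rat DEGs in place of 496 and 1174 upregulated mouse DEGs in place of 1862. Library size alone gave 1449 upregulated and 2733 downregulated mouse DEGs in place of 1862 and 1917, and 10 falling YAP/TEAD target genes in place of 6. The cause of these shifts was not tested.

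With the replicate number as a block, 3 of the 10 genes rose and 5 fell in rat, 2 rose and 8 fell in mouse, and the block changed no call of the 10 genes. The deviations of control and model libraries with the same number had correlations of -0.0977 to 0.0849 in rat and 0.00124 to 0.0149 in mouse. Those with unlike numbers had -0.185 to 0.162 in rat and -0.0104 to 0.00555 in mouse. These few values do not show a pairing by number and cannot exclude one. The block gave 624 upregulated and 503 downregulated rat DEGs. The lowest count of any of the 10 genes in a library was 140, for Postn in MM replicate 3.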
